A study of Mus musculus with 9 samples.

Results

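The genes described here are 10 chaperones, folding enzymes and unfolded protein response genes of the endoplasmic reticulum (ER). They were taken by gene symbol from a fixed list, Hspa5, Hsp90b1, Pdia3, Pdia4, Pdia6, Calr, Canx, Xbp1, Dnajb9 and Herpud1, and all 10 of 10 were present among the 11802 genes of the expression table. The study profiled ribosome-bound RNA of endothelial cells in mouse white adipose tissue, to compare endothelium without and with Mfn2. Mfn2 encodes mitofusin 2, a mitochondrial fusion protein that also tethers mitochondria to the ER. The KO group was 5 libraries of genotype Pdgfb-iCreERT2:Mfn2 iΔEC:Rpl22HA, labelled as lacking Mfn2 in endothelial cells. The WT group was 4 libraries of genotype Pdgfb-iCreERT2:Rpl22HA, labelled as having it. Both groups carried the Pdgfb-iCreERT2 driver, a tamoxifen-inducible Cre active in endothelial cells, and Rpl22HA, the HA-tagged ribosomal protein used for the pulldown. Age, sex and the induction of Cre were not given in the sources used here. The labels call the replicates biological and name no animals, and the p-values below speak only of the spread between libraries.

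In the ER, newly made secreted and membrane proteins are folded by chaperones of the HSP70 and HSP90 families, by the lectin chaperones calnexin and calreticulin, which hold glycoproteins, and by disulfide isomerases. When unfolded proteins build up, the sensors IRE1, PERK and ATF6 start the unfolded protein response: IRE1 splices the Xbp1 RNA, and the XBP1 and ATF6 proteins then switch on chaperone and degradation genes. Endothelial cells secrete large amounts of matrix and von Willebrand factor, and they express these genes without any added stress.

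The libraries held 1615968 to 3829356 listed reads in KO and 1034753 to 2501048 in WT. In CPM (read counts scaled to a common library total) the targeted gene was not lower in KO. Mfn2 stood at 129.61, 35.36, 56.98, 65.59 and 46.04 CPM in KO replicates 1 to 5. In WT replicates 1 to 4 it stood at 20.25, 55.78, 30.46 and 38.01 CPM. Its log2 difference was 0.81 (SE 0.446, limma adjusted p = 0.131), and the labels do not say which part of the gene was deleted. "KO" below therefore means the libraries labelled KO, and each direction rests on that label. Mitochondrial ribosomal RNA took 12.8 to 25.2% of reads in KO and 13.9 to 64.8% in WT (KO mean 18.2% ± 4.76, WT mean 43.6% ± 21.4, SD, n = 5 and 4; exact permutation p = 0.0476). The median gene lay 0.98 higher in KO on the log2 scale (two-sided p = 0.00794 by exact permutation, the smallest that splits of 5 and 4 libraries allow). Differences are therefore given in the deposited CPM, and also relative, with each library's median log2(CPM + 1) subtracted. The relative difference of Mfn2 was −0.16 (SE 0.365, limma adjusted p = 0.898). All 10 endothelial markers were detected in every library, with a summed level of 2165 to 4837 CPM in KO and 691 to 2434 CPM in WT. The 10 adipocyte markers summed to 10108 to 21163 CPM in KO and 4302 to 7727 CPM in WT. The 5 measured of 7 skeletal muscle markers summed to 345 to 6749 CPM in KO, highest in KO replicate 5, and 67.8 to 239 CPM in WT. The 3 measured of 7 plasma cell markers, cells rich in ER chaperones, summed to 18.5 to 55.2 CPM in KO and 15.0 to 105 CPM in WT, and their defining markers Jchain and Mzb1 were not in the table. The 4 measured of 6 pericyte and smooth muscle markers summed to 266 to 454 CPM in KO and 96.0 to 218 CPM in WT. The sums of the groups did not overlap for adipocyte, muscle or pericyte markers, with KO above WT. Of all single genes, 18.7% were apart in this direction. In the deposited CPM limma called 9 of 10 endothelial, 2 of 10 adipocyte, 5 of 5 muscle and 3 of 4 pericyte markers higher. It also called 1 of 3 plasma cell markers, no fibroblast or macrophage marker, and 32.0% of all genes higher. The median relative difference, KO minus WT, was 0.45 for endothelial, 1.83 for muscle and 0.30 for pericyte markers. It was −0.31 for adipocyte, −0.51 for fibroblast, −0.36 for macrophage and −1.58 for plasma cell markers. Over all genes it was 0.12. The sums overlapped for endothelial and plasma cell markers. They also overlapped for fibroblast markers (771 to 7495 CPM in KO, 1061 to 4363 CPM in WT) and macrophage markers (396 to 1001 CPM in KO, 184 to 819 CPM in WT). No measured marker was at 0 in any library. The part of these other cells in the levels below was not tested, and fewer cells of a type and less RNA per cell cannot be told apart.

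In the deposited CPM, 7 of the 10 genes rose in KO and none fell. They were Hspa5, Pdia3, Pdia4, Pdia6, Canx, Xbp1 and Herpud1, with log2 differences of 1.09 to 1.74 (limma, adjusted p under 0.05 over all genes). The median over the 10 genes was 1.19, and Hsp90b1, Calr and Dnajb9 were not called. Of all 11802 genes, 32.0% were called higher and 0.203% lower, with a median log2 difference of 1.10. Relative to the library median, none of the 10 genes passed in either direction, against 0.0339% of all genes called higher and 0.0763% called lower. None reached an unadjusted p under 0.05 in that fit (11.7% of all genes did), and on the recovered reads edgeR and DESeq2 called none either. Of all genes, edgeR placed 0.00847% higher and 0.0339% lower. DESeq2 placed 0.357% higher, with 1.38% lower, among the 8124 genes to which it gave an adjusted p. The relative median of the 10 genes was 0.21, with 7 above 0 and 3 below, beside 0.12 over all genes, of which 57.9% lay above 0. All 7 calls were lost with quantile normalisation, with mitochondrial rRNA left out before rescaling, and with its share as a covariate. Leaving out 1 library at a time gave 1 call (without WT replicate 1 or 3) to 8 calls (without WT replicate 4). There were 2, 4, 4 and 3 calls without KO replicate 3, 4 or 5 or WT replicate 2. Over all genes, 3780 were called higher with every library kept. That count was 1094, 1799 and 5916 without WT replicate 1, 3 or 4. It was 1689, 2091 and 1831 without KO replicate 3, 4 or 5, and it also fell without WT replicate 2.

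**Figure D1:**
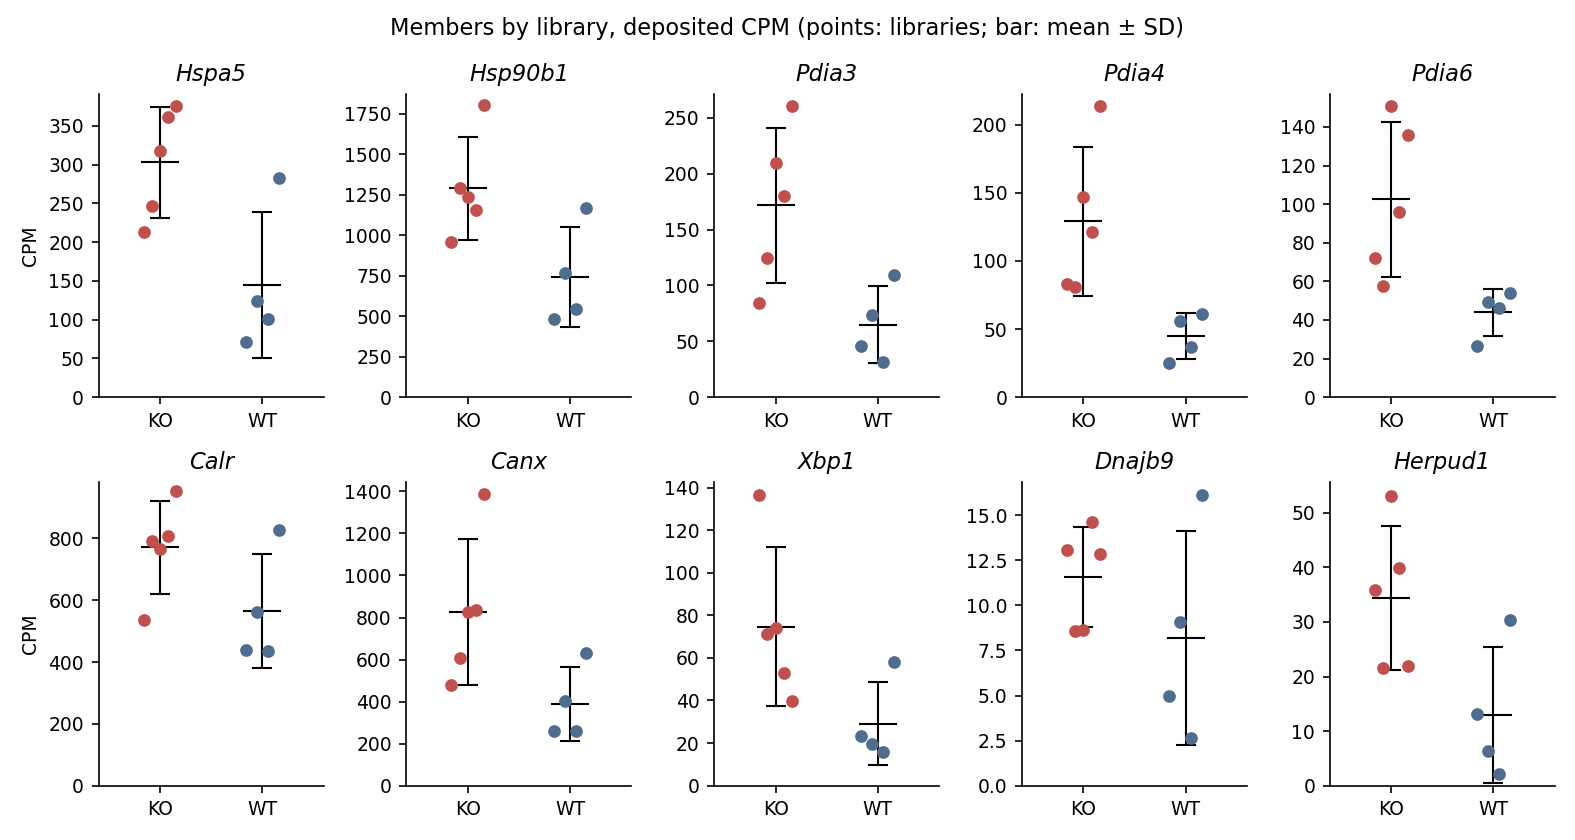
Deposited CPM of the 10 genes, 1 panel per gene with its own axis from 0, KO libraries on the left and WT libraries on the right. Points are libraries and the bars are the mean ± SD (n = 5 and 4); the 5 KO points lie above all 4 WT points for Pdia4 and Pdia6 only, and the highest WT point is replicate 4 in every panel.

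**Figure D2:**
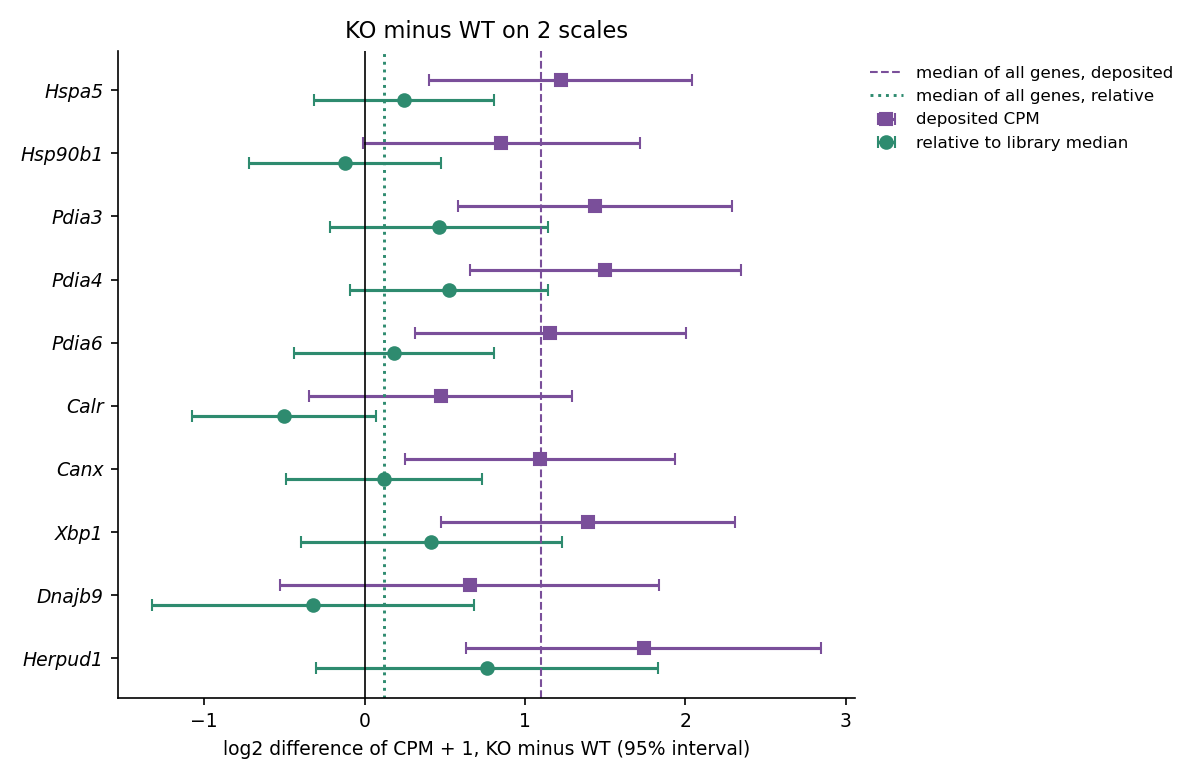
Log2 difference of CPM + 1, KO minus WT, for each gene with its 95% interval, in the deposited CPM (squares) and relative to the library median (circles). The dashed and dotted lines mark the medians of all genes, 1.10 and 0.12, and every relative interval includes 0.

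ATF6 and XBP1 are known to act through short promoter elements. The matches are printed here because they mark which of the 10 genes have an exact match to a classical stress element near the start site. The windows ran from 250 bases before to 50 bases after the start (RefSeq, GRCm38.p6), and all 10 genes matched one. The ER stress response element (ERSE: CCAAT, 9 bases of any kind, CCACG, searched on both strands) was present in 5 of the 10 windows and in 0.119% of all 32851 windows. Below, its letters are in capitals with 20 bases on each side, in the direction of the gene, and in the matches on the opposite strand the capitals read CGTGG and ATTGG.
Hspa5 (chr2:34772005-34772063, plus strand): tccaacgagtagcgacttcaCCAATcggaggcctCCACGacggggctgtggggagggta
Hsp90b1, upstream match (chr10:86705618-86705676, minus strand): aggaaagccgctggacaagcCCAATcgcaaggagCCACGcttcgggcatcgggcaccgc
Hsp90b1, match on the opposite strand (chr10:86705513-86705571, minus strand): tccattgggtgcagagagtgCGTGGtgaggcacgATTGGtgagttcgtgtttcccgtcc
Pdia6 (chr12:17266471-17266529, plus strand): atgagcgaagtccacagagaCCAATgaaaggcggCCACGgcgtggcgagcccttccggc
Calr, match on the opposite strand (chr8:84847055-84847113, minus strand): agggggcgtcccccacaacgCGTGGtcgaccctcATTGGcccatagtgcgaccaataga
Canx (chr11:50325780-50325838, minus strand): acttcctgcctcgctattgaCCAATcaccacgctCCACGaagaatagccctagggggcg
The related element ERSE-II (ATTGG, 1 base, CCACG) was present in the Herpud1 window and in 0.0365% of all windows.
Herpud1 (chr8:94386357-94386407, plus strand): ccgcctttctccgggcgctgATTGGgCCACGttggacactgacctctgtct
The core of the unfolded protein response element, TGACGTG on either strand, occurred in the Hspa5 window and in 2.01% of all windows. The windows of Pdia3, Pdia4, Xbp1 and Dnajb9 held none of these letter patterns. A match describes the letters of the window and does not show binding. Only exact letters in the window were searched, so a window without a match does not show that the gene lacks such an element. For Pdia4, Xbp1 and Herpud1 the bases after the start were not found in the gene's GENCODE M21 transcripts.

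Hspa5 encodes BiP, the HSP70 chaperone of the ER lumen that also holds the stress sensors inactive (ENSMUSG00000026864; GRCm38 chromosome 2, 34771970 to 34777547, plus strand). It stood at 212.79, 246.55, 317.74, 361.35 and 375.54 CPM in KO replicates 1 to 5, against 71.55, 124.22, 100.85 and 282.24 CPM in WT replicates 1 to 4. WT replicate 4 lay among the KO values, above KO replicates 1 and 2, and the other 3 WT libraries lay below every KO library. Hspa5 averaged 303 ± 71.1 CPM in KO and 145 ± 94.2 CPM in WT (SD, n = 5 and 4) and rose by 1.22 on the log2 scale (SE 0.408, limma adjusted p = 0.0249). Relative to the library median its difference was 0.25 (SE 0.268, 95% interval −0.31 to 0.80, adjusted p = 0.765), on the other side of 0 once the mitochondrial rRNA share entered as a covariate (−0.14). The call in CPM was lost without KO replicate 3 (0.0580), 4 (0.0622) or 5 (0.0541) or without WT replicate 1 (0.105), 2 (0.0522) or 3 (0.0739).

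Hsp90b1 encodes GRP94, the HSP90 chaperone of the ER lumen, which folds integrins and Toll-like receptors (ENSMUSG00000020048; chromosome 10, 86690209 to 86705509, minus strand). It stood at 955.57, 1292.01, 1233.81, 1154.92 and 1805.19 CPM in KO replicates 1 to 5, against 482.85, 765.92, 546.78 and 1166.96 CPM in WT replicates 1 to 4. The groups overlapped through WT replicate 4, and KO replicate 5 was the highest. Hsp90b1 averaged 1288 ± 316 CPM in KO and 741 ± 309 CPM in WT, a log2 difference of 0.85 that was not called (SE 0.428, limma adjusted p = 0.102). Without WT replicate 4 it was called (adjusted p = 0.0161), and it was also called with array weights. The relative difference was −0.12 (SE 0.287, 95% interval −0.72 to 0.47, adjusted p = 0.903), and its sign turned to 0.21 with quantile normalisation. Hsp90b1 overlaps the pseudogene 1810014B01Rik on the other strand and shares 273 identical bases with it, and without strand such reads cannot be told apart. The ratio of Hspa5 to Hsp90b1 within a library averaged −2.09 ± 0.280 in KO and −2.46 ± 0.303 in WT on the log2 scale, a difference of 0.37 that did not pass (exact two-sided permutation p = 0.103, 0.238 adjusted over 6 ratios).

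Dnajb9 encodes ERdj4, a J-domain co-chaperone of BiP and a target of XBP1 (ENSMUSG00000014905; chromosome 12, 44205559 to 44210326, minus strand). It had the lowest group means of the 10 genes, though Herpud1 was lower in WT replicates 2 and 3, with Dnajb9 at 13.05, 8.60, 8.66, 14.64 and 12.86 CPM in KO replicates 1 to 5, against 4.95, 9.10, 2.63 and 16.15 CPM in WT replicates 1 to 4. All 5 KO values lay within the range of the WT values, and WT replicate 4 was the highest of the 9 libraries. Only 5 reads stood behind the value of WT replicate 3 (95% Wilson interval 1.12 to 6.15 CPM, for counting error alone, because the reads carry no molecular identifiers). Dnajb9 averaged 11.6 ± 2.76 CPM in KO and 8.21 ± 5.93 CPM in WT, a log2 difference of 0.65 that was not called (SE 0.587, limma adjusted p = 0.344). Its relative difference was −0.32 (SE 0.483, 95% interval −1.33 to 0.68). The deposited difference was also on the other side of 0 with quantile normalisation, with the mitochondrial rRNA covariate, in edgeR and in DESeq2. The ratio of Dnajb9 to Hspa5 had a log2 difference of −0.57 (KO −4.59 ± 0.415, WT −4.02 ± 0.561; exact permutation p = 0.119, adjusted 0.238).

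Of the lectin chaperones, Canx was called higher in the deposited CPM and Calr was not. Canx encodes calnexin, the membrane-bound lectin chaperone of newly made glycoproteins (ENSMUSG00000020368; chromosome 11, 50293961 to 50325673, minus strand). It stood at 478.09, 606.35, 825.90, 836.32 and 1386.17 CPM in KO replicates 1 to 5, against 258.75, 403.93, 260.52 and 630.04 CPM in WT replicates 1 to 4. WT replicate 4 lay above KO replicates 1 and 2, and KO replicate 5 stood well above the rest. Canx averaged 827 ± 348 CPM in KO and 388 ± 175 CPM in WT and rose by 1.09 on the log2 scale (SE 0.420, limma adjusted p = 0.0426). Its relative difference was 0.12 (SE 0.293, 95% interval −0.49 to 0.73, adjusted p = 0.911), and it changed sign without KO replicate 5 (−0.042) or WT replicate 3 (−0.014). The call in CPM was lost without KO replicate 3 (0.0898), 4 (0.0862) or 5 (0.112) or without WT replicate 1 (0.129), 2 (0.0710) or 3 (0.126).

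Calr encodes calreticulin, the soluble lectin chaperone of the lumen and a calcium store protein (ENSMUSG00000003814; chromosome 8, 84841850 to 84846934, minus strand). It stood at 536.98, 792.21, 764.23, 808.21 and 954.04 CPM in KO replicates 1 to 5, against 439.20, 560.59, 434.90 and 825.80 CPM in WT replicates 1 to 4. A single KO library, replicate 5, lay above the highest WT library. Calr averaged 771 ± 150.1 CPM in KO and 565 ± 183 CPM in WT, a log2 difference of 0.47 that was not called (SE 0.407, limma adjusted p = 0.323). Its relative difference was −0.50, the lowest of the 10 genes (SE 0.275, 95% interval −1.08 to 0.07, limma adjusted p = 0.501). The deposited difference was below 0 with quantile normalisation (−0.28), without mitochondrial rRNA (−0.13), with its share as a covariate, in edgeR (−0.61) and in DESeq2 (−0.60).

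The ratio of Calr to Canx within a library does not depend on the scaling of that library. It was 1.12, 1.31, 0.925, 0.966 and 0.688 in KO replicates 1 to 5, against 1.69, 1.39, 1.67 and 1.31 in WT replicates 1 to 4. The 5 KO ratios were all lower than the 4 WT ratios, with KO replicate 2 and WT replicate 4 nearly equal. The geometric mean ratio was 0.980 in KO and 1.51 in WT, a log2 difference of −0.62 (KO −0.03 ± 0.345, WT 0.59 ± 0.187; exact two-sided permutation p = 0.0159). Adjusted over the 6 ratios examined the p was 0.0952, so the difference did not pass the threshold of 0.05, and over the alternatives tried the adjusted p ran to 0.25. The log2 difference lay between −0.72 and −0.49 in the settings that left out 1 library each. Calr made up 21% ± 2.12 of the summed CPM of the 10 genes in KO and 28.4% ± 2.65 in WT, while Canx made up 21.6% ± 3.46 in KO and 18.8% ± 0.898 in WT.

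**Figure D3:**
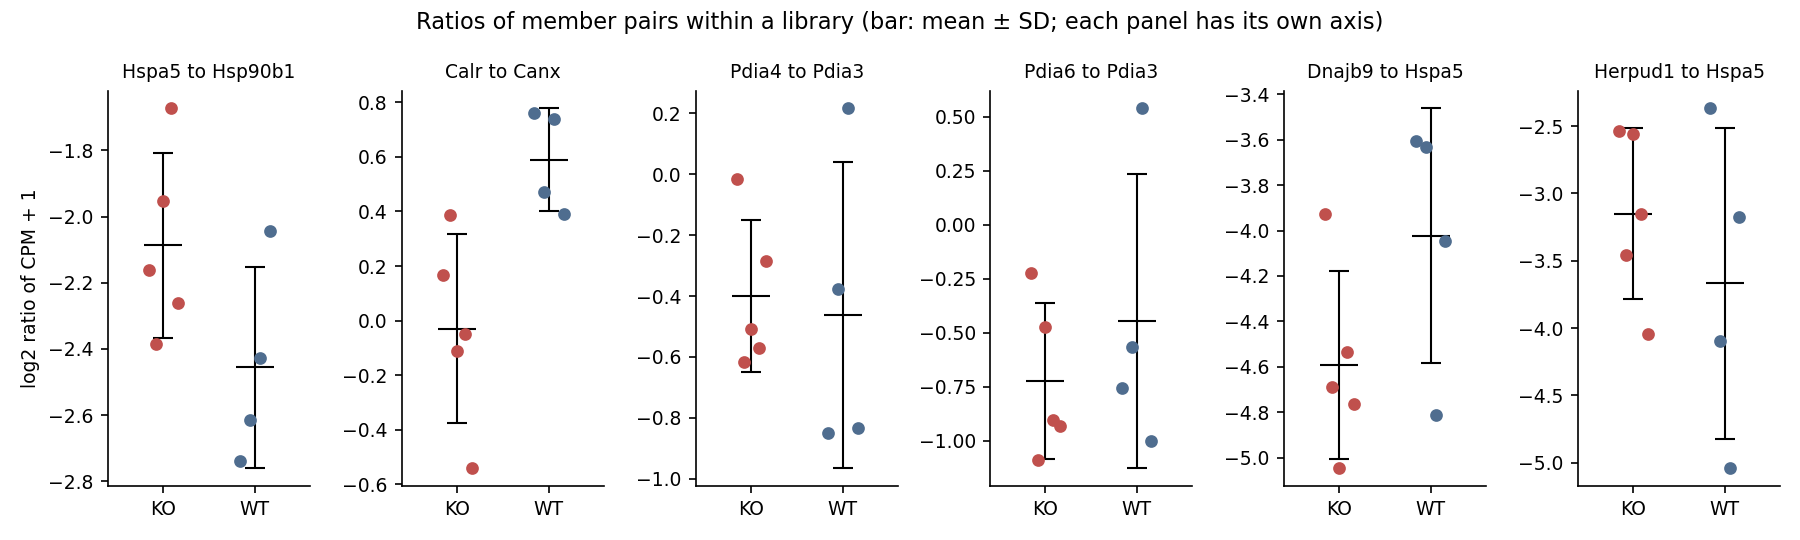
Log2 ratio of CPM + 1 for 6 pairs of genes within each library, KO on the left and WT on the right of each panel, with points for libraries and bars for the mean ± SD (n = 5 and 4). Each panel has its own axis; the groups are apart only for Calr to Canx, where the KO points average −0.03 and the WT points 0.59.

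All 3 disulfide isomerases rose in the deposited CPM. Pdia3 encodes ERp57, the isomerase that works with calnexin and calreticulin on glycoproteins (ENSMUSG00000027248; chromosome 2, 121413775 to 121438687, plus strand). It stood at 84.08, 124.23, 209.90, 180.38 and 260.31 CPM in KO replicates 1 to 5, against 45.45, 73.19, 31.51 and 109.28 CPM in WT replicates 1 to 4. KO replicate 1 was the only KO library below WT replicate 4. Pdia3 averaged 172 ± 69.5 CPM in KO and 64.9 ± 34.3 CPM in WT and rose by 1.44 on the log2 scale (SE 0.424, limma adjusted p = 0.0151), with a relative difference of 0.46 (SE 0.326, 95% interval −0.22 to 1.14, adjusted p = 0.611). The call was lost without WT replicate 1 (0.0545) or WT replicate 3 (0.0693). Pdia3 overlaps Catsper2 on the other strand by 18 bases.

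Pdia4 encodes ERp72, an isomerase found in complexes with BiP and GRP94 (ENSMUSG00000025823; chromosome 6, 47796141 to 47813430, minus strand). It stood at 83.17, 80.75, 147.15, 121.23 and 213.49 CPM in KO replicates 1 to 5, against 24.75, 56.18, 36.77 and 60.82 CPM in WT replicates 1 to 4. The groups did not overlap. Pdia4 averaged 129 ± 54.7 CPM in KO and 44.6 ± 16.9 CPM in WT and rose by 1.50 (SE 0.420, limma adjusted p = 0.0122). Its relative difference was 0.52 (SE 0.296, 95% interval −0.09 to 1.14, adjusted p = 0.517). Leaving out 1 library at a time kept its call in 8 of 9 fits, and it was lost without WT replicate 1 (0.0524).

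Pdia6 encodes P5, an isomerase that binds BiP and dampens IRE1 and PERK signalling (ENSMUSG00000020571; chromosome 12, 17266545 to 17284770, plus strand). It stood at 71.94, 57.82, 151.12, 96.05 and 135.81 CPM in KO replicates 1 to 5, against 26.55, 49.06, 46.22 and 54.17 CPM in WT replicates 1 to 4. The groups did not overlap, with KO replicate 2 close above WT replicate 4. Non-overlap with KO above WT held for 2 of the 10 genes, Pdia4 and Pdia6, beside 18.7% of all genes, and the reverse for none of them, beside 0.0254%. In the relative values the groups overlapped for all 10 genes, beside 2.07% of all genes with KO above WT and 1.74% with KO below. Pdia6 averaged 103 ± 40.1 CPM in KO and 44.0 ± 12.1 CPM in WT and rose by 1.16 (SE 0.419, limma adjusted p = 0.0343), with a relative difference of 0.18 (SE 0.300, 95% interval −0.44 to 0.81). The call was lost without KO replicate 3 (0.108), 4 (0.0685) or 5 (0.0811) or without WT replicate 1 (0.112), 2 (0.0533) or 3 (0.0647). Ratios between the isomerases did not pass: Pdia4 to Pdia3 had a log2 difference of 0.06 and Pdia6 to Pdia3 one of −0.28 (exact permutation p = 0.794 and 0.532, adjusted 0.794 and 0.638), and both changed sign when single libraries were left out.

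Xbp1 encodes the transcription factor that IRE1 activates by splicing, and gene-level values do not separate its spliced and unspliced forms (ENSMUSG00000020484; chromosome 11, 5520659 to 5525893, plus strand). It stood at 136.29, 71.19, 73.93, 52.71 and 39.61 CPM in KO replicates 1 to 5, against 23.40, 19.39, 15.76 and 57.97 CPM in WT replicates 1 to 4. WT replicate 4 lay above KO replicates 4 and 5, and KO replicate 1 was the highest. Xbp1 averaged 74.7 ± 37.2 CPM in KO and 29.1 ± 19.5 CPM in WT and rose by 1.39 (SE 0.456, limma adjusted p = 0.0230). Its relative difference was 0.42 (SE 0.39, 95% interval −0.40 to 1.23, adjusted p = 0.726). The call was lost without KO replicate 1 (0.0588) or 3 (0.0531) or without WT replicate 1 (0.0627), 2 (0.0595) or 3 (0.0801).

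Herpud1 encodes HERP, a membrane protein that organises the HRD1 complex of ER-associated degradation (ENSMUSG00000031770; chromosome 8, 94386438 to 94395377, plus strand). It stood at 35.82, 21.50, 53.02, 39.82 and 21.86 CPM in KO replicates 1 to 5, against 13.05, 6.33, 2.1 and 30.41 CPM in WT replicates 1 to 4. WT replicate 4 lay above KO replicates 2 and 5, and WT replicate 3 held 4 reads (95% Wilson interval 0.817 to 5.40 CPM). Herpud1 averaged 34.4 ± 13.2 CPM in KO and 13.0 ± 12.5 CPM in WT and rose by 1.74, the largest difference of the 10 genes (SE 0.550, limma adjusted p = 0.0201). It also had the largest relative difference, 0.76 (SE 0.512, 95% interval −0.30 to 1.83, adjusted p = 0.588). The call was lost without KO replicate 3 (0.0592) or WT replicate 3 (0.104). The ratio of Herpud1 to Hspa5 had a log2 difference of 0.52 (KO −3.15 ± 0.635, WT −3.67 ± 1.15; exact permutation p = 0.468, adjusted 0.638). Herpud1 overlaps the antisense gene Gm15890 over 535 bases.

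Exact two-sided permutation tests on single genes gave p = 0.0238 for the CPM of Pdia4 at the lowest and 0.286 for Dnajb9 at the highest. On the relative values they gave 0.0317 for Calr (lower in KO), 0.0714 for Pdia4 and 0.262 to 0.762 for the other 8 genes. These p-values are not adjusted, so the Calr value stands beside its limma adjusted p of 0.501 over all genes.

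Per kilobase of exon, the lectin and HSP90 chaperones were the most abundant and Dnajb9 the least. Hsp90b1 stood at 320 ± 78.3 CPM per kb in KO and 184 ± 76.6 in WT, and Calr at 268 ± 52.1 in KO and 196 ± 63.6 in WT. Within libraries Hsp90b1 lay above Calr in 5 of 5 KO libraries, while Calr lay above Hsp90b1 in 3 of 4 WT libraries. Canx (176 ± 74.1 CPM per kb in KO, 82.7 ± 37.3 in WT) and Hspa5 (71.6 ± 16.8 in KO, 34.2 ± 22.3 in WT) followed in that order in every library. Pdia3 (54.7 ± 22.1 in KO, 20.7 ± 10.9 in WT) and Pdia4 (53.8 ± 22.8 in KO, 18.6 ± 7.03 in WT) could not be ordered, with Pdia3 above Pdia4 in 3 of 5 KO and 2 of 4 WT libraries. Pdia6 (27.4 ± 10.7 CPM per kb in KO, 11.7 ± 3.23 in WT) lay below Pdia4 in every library and could not be ordered against Xbp1 (23.0 ± 11.4 in KO, 8.97 ± 6.0 in WT). Herpud1 (14.7 ± 5.68 in KO, 5.56 ± 5.34 in WT) lay above Dnajb9 (4.54 ± 1.08 in KO, 3.22 ± 2.33 in WT) in 5 of 5 KO and 2 of 4 WT libraries. Summed, the 10 genes took 3713 ± 952 CPM in KO (range 2608 to 5205) and 2043 ± 849 CPM in WT (range 1391 to 3234).

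Within each group, some libraries were the highest or lowest for several of the 10 genes. WT replicate 4, the shallowest library and the one WT library with a low share of mitochondrial rRNA (13.9%), was the highest WT library for 10 of 10 genes in CPM and for 5 of 10 relative to the library median. Those 5 were Hspa5, Hsp90b1, Canx, Xbp1 and Dnajb9. WT replicate 3 was the lowest WT library for 8 of 10 genes in the relative values. In KO, replicate 5 was the highest library in CPM for Hspa5, Hsp90b1, Pdia3, Pdia4, Calr and Canx and the lowest for Xbp1. KO replicate 1 was the reverse, lowest for Hspa5, Hsp90b1, Pdia3, Calr and Canx and highest for Xbp1. KO replicate 5 was also the library with the highest skeletal muscle markers, and the part of that tissue in its chaperone levels was not tested.

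**Figure D4:**
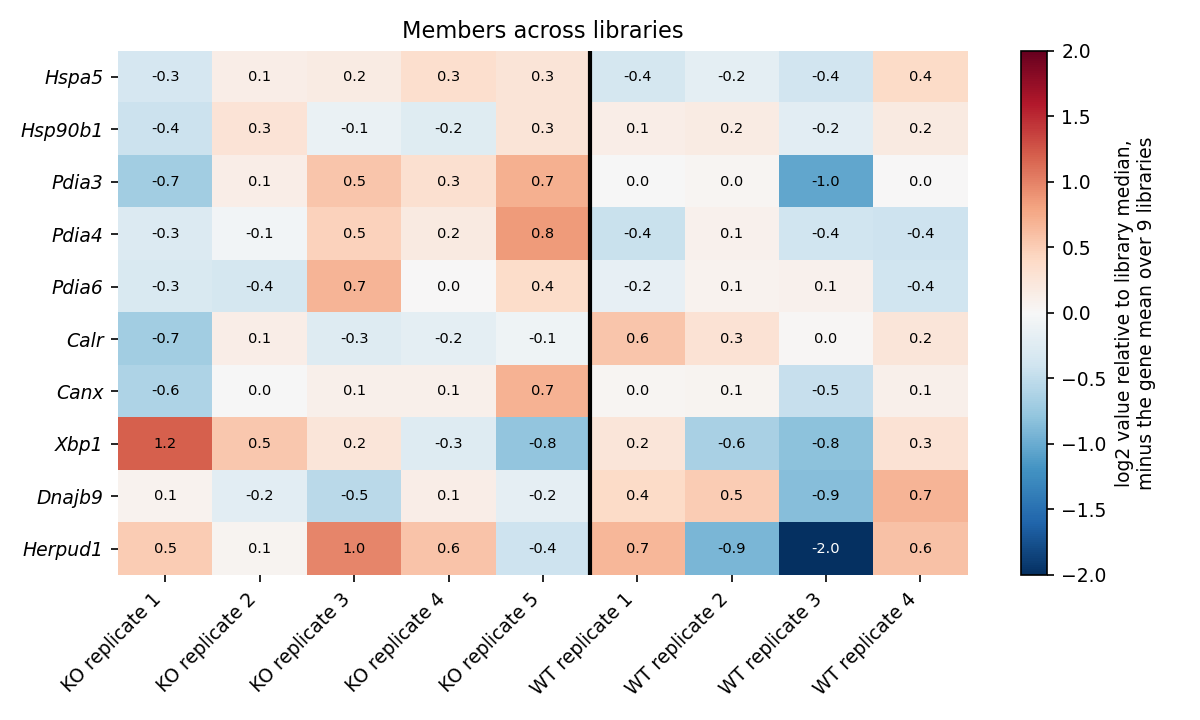
Values of the 10 genes in each library, as log2(CPM + 1) relative to the library median minus the gene's mean over the 9 libraries, KO libraries left of the black line and WT libraries right of it. Red is above and blue below the gene's mean; WT replicate 3 is the lowest WT library for 8 of 10 genes, and Xbp1 is highest in KO replicate 1.

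The genes whose profile over the 9 libraries lay closest to that of Hspa5 were Crim1, Plxnb2, Rpl4, Tnpo1 and Tln1. Their root mean square distances were 0.106, 0.118, 0.122, 0.137 and 0.141 in centred log2(CPM + 1), with a median of 0.565 over the 4775 genes compared. The rest of the 10 ER genes lay farther off, and the pathway genes described below were not looked up in this ranking. Canx was the closest at 0.271 (rank 194), followed by Hsp90b1 at 0.315 (rank 401), and Xbp1 and Herpud1 were the farthest at 0.722 and 0.830. All of these distances carry the shared shift of the library medians. That of Herpud1 also carries counting error, with 4 reads in WT replicate 3.

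Around these 10 genes, lists of the same pathways held 146 further measured genes. Of them 58 (39.7%) were called higher in the deposited CPM, beside 32.0% of all genes, and none was called lower. Their relative median was 0.22, and 91 (62.3%) lay above 0, beside 0.12 and 57.9% for all genes. In the relative values limma called none of the 146. There 13 were higher and 3 lower at an unadjusted limma p under 0.05, together a share near the 11.7% of all genes. By direction the split was less even than among all 11802 genes, of which 707 were higher and 671 lower. The 58 calls fell to 17 without WT replicate 1, 23 without KO replicate 3, 28 without KO replicate 5, 28 without WT replicate 3 and 35 without KO replicate 4, and numbered 96 without WT replicate 4. Over all genes the counts of these fits, given above, moved in the same directions. The counts for each list below, with 1 library left out, are to be read beside those all-gene counts. Because the lists were compiled with earlier results of these data known, the counts are a description.

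Of 25 other ER folding factors, 11 (44.0%) rose, beside 32.0% of all genes, and their relative median was 0.23, beside 0.12. The 11 calls became 7, 3, 4 and 4 without KO replicate 2, 3, 4 or 5, and 3, 6, 2 and 17 without WT replicate 1, 2, 3 or 4. Manf, a BiP-binding secreted protein of the stress response, averaged 59.8 ± 24.0 CPM in KO and 15.5 ± 6.39 CPM in WT, a log2 difference of 1.92 (limma adjusted p = 0.00675; relative 0.94). Ganab, the catalytic subunit of the glucosidase that trims glycans before calnexin binding, averaged 44.5 ± 11.4 CPM in KO and 13.2 ± 6.55 CPM in WT (log2 difference 1.80, adjusted p = 0.0104; relative 0.82). The prolyl isomerase gene Fkbp14 had a log2 difference of 1.84 (relative 0.87), and Dnajc3, a BiP co-chaperone and PERK pathway inhibitor, one of 1.21 (relative 0.23).

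Of 16 other disulfide isomerases and oxidases, 6 (37.5%) rose, a share near the 32.0% of all genes, with a relative median of 0.10. Only 3 were called without KO replicate 3, WT replicate 1 or WT replicate 3. Qsox1, a sulfhydryl oxidase of the Golgi and secreted fluid, averaged 52.8 ± 7.56 CPM in KO and 9.03 ± 4.09 CPM in WT, a log2 difference of 2.50 (limma adjusted p = 0.00223). Its relative difference was 1.52 (limma adjusted p = 0.115), and it was the only one of the 146 genes that DESeq2 called (log2 difference 1.43, adjusted p = 0.0188). Prdx4, the ER peroxiredoxin (28.0 ± 6.33 CPM in KO, 6.96 ± 3.41 CPM in WT), and Pdia5 rose by 1.98 each (relative 1.00 each). P4hb, which encodes the founding disulfide isomerase, rose by 1.20 (relative 0.23) and averaged 281 ± 99.0 CPM in KO and 127 ± 70.5 CPM in WT.

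Of 28 genes of ER-associated degradation, 10 (35.7%) rose, a share near the 32.0% of all genes, and their relative median was 0.00, beside 0.12. The count was 4 and 6 without KO replicate 3 or 5, and 4, 5 and 16 without WT replicate 1, 3 or 4. Erlin2, which targets the IP3 receptor for degradation, averaged 41.9 ± 8.96 CPM in KO and 8.70 ± 2.83 CPM in WT (log2 difference 2.18, limma adjusted p = 0.00501; relative 1.20). Selenos, an adaptor of the extraction ATPase, also had a log2 difference of 2.18 (relative 1.20), and the ubiquitin-conjugating enzyme gene Ube2g2, at 0 CPM in WT replicate 3, one of 2.34 (relative 1.36). Vcp, that ATPase, was the most abundant in CPM, with 383 ± 103 CPM in KO and 140 ± 84.1 CPM in WT (log2 difference 1.55; relative 0.58).

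Of 23 genes of the stress sensors and their signalling, 11 (47.8%) rose, beside 32.0% of all genes, with a relative median of 0.23. This count was 3, 6 and 4 without KO replicate 3, 4 or 5, and 2, 5 and 18 without WT replicate 1, 3 or 4. Atf6 averaged 23.8 ± 11.0 CPM in KO and 9.15 ± 7.94 CPM in WT and rose by 1.52 (limma adjusted p = 0.0450; relative 0.55). Its paralog Atf6b averaged 24.6 ± 6.98 CPM in KO and 10.2 ± 9.15 CPM in WT and rose by 1.63 (limma adjusted p = 0.0314; relative 0.66). Ern1 and Eif2ak3 were not called: Ern1, which encodes IRE1, averaged 36.8 ± 7.36 CPM in KO and 18.3 ± 15.1 CPM in WT (limma adjusted p = 0.0504), and Eif2ak3, which encodes PERK, 44.9 ± 12.4 CPM in KO and 24.4 ± 13.9 CPM in WT (limma adjusted p = 0.0900). Atf4, the transcription factor below PERK, averaged 60.3 ± 64.6 CPM in KO and 15.9 ± 8.56 CPM in WT (log2 difference 1.57, limma adjusted p = 0.0285; relative 0.59). Ddit3, the CHOP gene downstream of ATF4, averaged 24.0 ± 17.5 CPM in KO and 27.2 ± 13.6 CPM in WT, a log2 difference of −0.31 (limma adjusted p = 0.608) and a relative one of −1.29 (limma adjusted p = 0.284). Ppp1r15a, the GADD34 gene that reverses PERK's block of translation, averaged 22.0 ± 3.28 CPM in KO and 24.9 ± 15.8 CPM in WT (relative −0.94, limma adjusted p = 0.380). Its paralog Ppp1r15b averaged 86.5 ± 34.4 CPM in KO and 26.2 ± 17.7 CPM in WT (log2 difference 1.79, limma adjusted p = 0.00777). The relative difference of Ppp1r15b was 0.81 (limma adjusted p = 0.337). These sensor and PERK pathway genes were named for their roles after their values were seen. The genes of this list with the largest relative differences among those called were Wfs1, an ER calcium and stress regulator (1.23), Mbtps1, the protease that cleaves ATF6 (1.09), and Trib3, a CHOP target (0.94).

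Of 24 genes of the translocon and signal peptidase, 8 (33.3%) rose, a share near the 32.0% of all genes. In the relative values 19 of the 24 (79.2%) lay above 0, beside 57.9% of all genes, with a median of 0.24. The 8 calls became 3 without WT replicate 1 and 18 without WT replicate 4. Spcs3, a signal peptidase subunit, averaged 14.5 ± 6.85 CPM in KO and 1.22 ± 1.27 CPM in WT (log2 difference 2.83, limma adjusted p = 0.00616). Its relative difference was 1.85 (limma adjusted p = 0.229), and its WT values ran from 0 to 2.85 CPM, near the floor. Srp54a, Sec11c and Ssr1 had log2 differences of 2.01, 1.87 and 1.46 (relative 1.03, 0.90 and 0.48). Of 12 oligosaccharyltransferase genes, which add glycans to new proteins, 5 (41.7%) rose, beside 32.0% of all genes, with a relative median of 0.16. Among them were Ostc, Stt3a, Stt3b and Rpn1, with log2 differences of 2.19, 1.62, 1.36 and 1.16 (relative 1.21, 0.65, 0.39 and 0.18). None of the 12 was called without KO replicate 3 or without WT replicate 1, 1 without KO replicate 4, and 2 without KO replicate 5 or WT replicate 3.

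Of 20 genes of the contacts between ER and mitochondria, the site where mitofusin 2 acts as a tether, 9 (45%) rose, beside 32.0% of all genes. In the relative values 13 (65.0%) lay above 0, beside 57.9%, with a median of 0.27. The count was 4 without KO replicate 3 or 5, 3 without WT replicate 1 and 14 without WT replicate 4. Vdac1, the outer membrane channel coupled to the IP3 receptor, averaged 88.0 ± 25.6 CPM in KO and 18.6 ± 9.48 CPM in WT, a log2 difference of 2.30 (limma adjusted p = 0.00273; relative 1.32, adjusted p = 0.229). Hspa9, the mitochondrial HSP70 that links this pair, averaged 235 ± 76.4 CPM in KO and 81.1 ± 25.5 CPM in WT (log2 difference 1.52; relative 0.55). Vapa, a tether of the ER membrane, and Tmx1, a transmembrane thioredoxin, had log2 differences of 1.63 and 1.61 (relative 0.65 and 0.63). None of the 20 was called in the relative values.

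**Figure D5:**
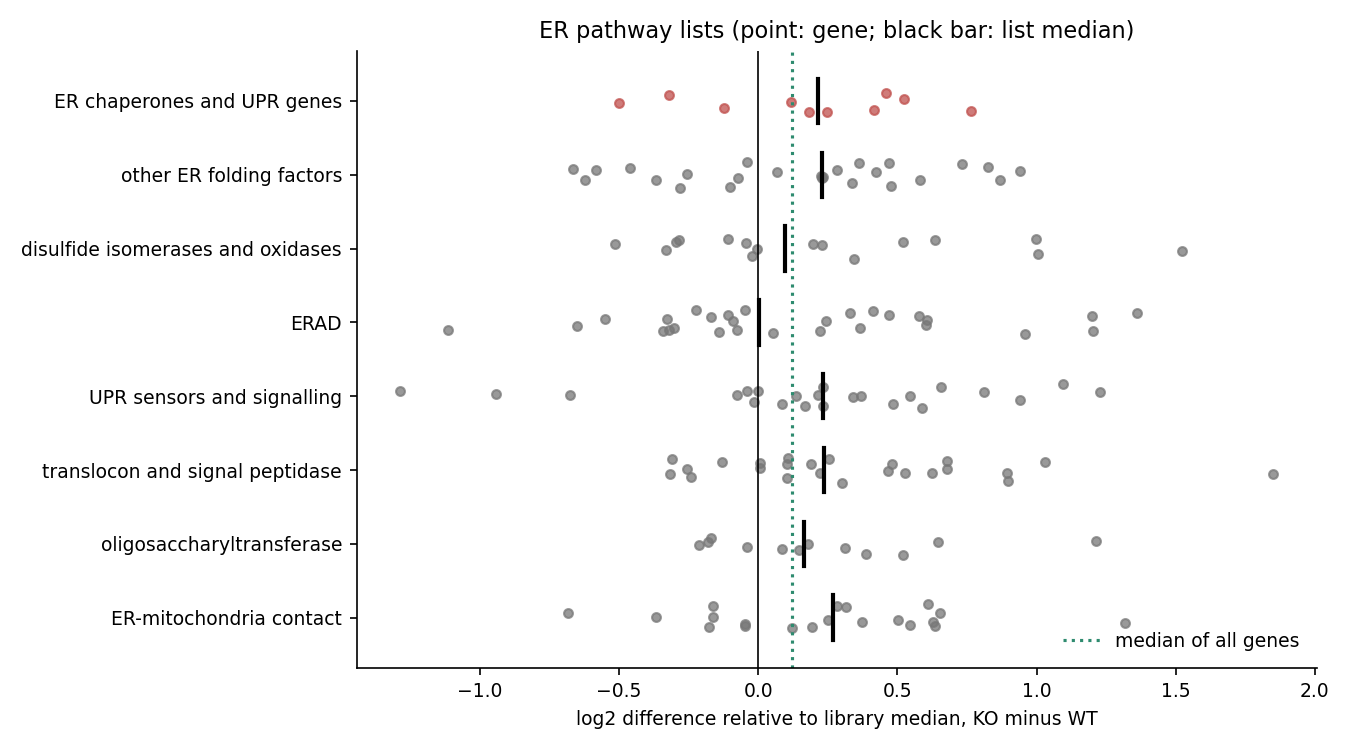
Log2 difference relative to the library median, KO minus WT, for the 10 ER chaperone and unfolded protein response genes (top) and for 7 lists of related genes, with points for genes and black bars for list medians. The dotted line is the median of all genes, 0.12; the medians lie between 0.00 (ER-associated degradation) and 0.27 (contacts of ER and mitochondria).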

How the data were processed

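RNA on HA-tagged ribosomes was pulled down from white adipose tissue, copied with a low-input poly(A) kit and tagmented, which does not mark strand, per the labels' protocols. The authors deposited CPM for 11802 genes, and 100% of nonzero values were whole reads within 0.1 read. Per the submitters' processing notes, the tools were HISAT2 2.1.0, Trimmomatic 0.39, FastQC 0.11.9, R 4.0.2 and edgeR 3.32.0 and the builds GRCm38 and mm10, without roles; counter, strand setting and annotation: not given in the sources used here. Names, coordinates and exon lengths came from GENCODE M21 (11787 genes matched), promoters from RefSeq, and near copies from BLAST+ 2.17.0. The test was limma 3.58.1 (R 4.3.3) with trend on log2(CPM + 1), which understates changes of low genes, two-sided with Benjamini-Hochberg adjustment over all genes and calls under 0.05; a mean CPM minimum of 1 removed 0 genes, since the lowest mean was 1.77. Single values and ratios used exact permutation over all splits (scipy 1.17.1). Alternatives included edgeR 4.0.16 and DESeq2 1.42.0 on recovered reads, for which limma's tests and theirs were checked on simulated data. The simulated libraries shared a common profile apart from the changed genes, with no shift of the library medians between groups. The effect of that shift on the tests was therefore not checked. Members and lists were chosen with earlier results of these data known. Named were all members, up to 3 called genes per list by relative difference and its highest in CPM, and the 5 profiles nearest to Hspa5 at a mean CPM of at least 20 with a gene name. Replicate numbers did not pair the libraries (correlations of −0.04 to 0.04).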

Additional observations from a re-analysis of the deposited data

How the results depend on the processing

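In the deposited CPM, 3780 genes were higher and 24 lower. The counts were 4 and 5 with quantile normalisation, 21 and 4 without mitochondrial rRNA, 16 and 2 with its share as covariate, 1 and 4 in edgeR and 29 and 112 in DESeq2; limma without trend called 10 lower. Of the 10 genes, 0 were called in these 5 settings and 3 without trend (Pdia3, Pdia4, Herpud1). Of the 146 pathway genes, 0, 1, 1, 0 and 1 were called, 37 without trend and 89 with array weights. Over all genes the count called higher also fell without trend and rose with array weights. Relative counts (4 higher, 9 lower) were 2 and 2 at a pseudocount of 0.5, 2 lower with the mean CPM minimum at 5, 0 and 0 without trend or with the rRNA covariate, 11 and 52 with array weights, and as above in edgeR and DESeq2, where 1 pathway gene was called.

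With 1 library left out, deposited counts ran from 1094 to 5916 higher and 7 to 23 lower, relative counts from 0 to 21 and 0 to 106, calls among the 10 genes from 1 to 8 and among pathway genes from 17 to 96. Of the ratios, Pdia4 to Pdia3 ran from −0.067 to 0.29, Pdia6 to Pdia3 from −0.46 to 0.050.

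The libraries share only replicate numbers, and 1 of 4 KO libraries correlated best with its own number. The replicate block, in which KO replicate 5 has no partner, gave 1932 higher and 8 lower, 8 and 30 relative, 4 of the 10 genes and 29 pathway genes. With this block the relative difference of Canx was −0.042.

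Signs turned in the deposited values for Hsp90b1 (edgeR −0.22, DESeq2 −0.21), Calr (quantile −0.28, without rRNA −0.13, covariate −0.000229, edgeR −0.61, DESeq2 −0.60) and Dnajb9 (quantile −0.39, covariate −0.23, edgeR and DESeq2 −0.43). In the relative values they turned for Hspa5 (covariate −0.14), Hsp90b1 (0.087 at a pseudocount of 5, quantile 0.21) and Canx (covariate −0.015, without KO replicate 5 −0.042, without WT replicate 3 −0.014). No relative call among the 10 genes appeared in any setting. The cause was not tested. Depth limits Dnajb9 and Herpud1, with 5 and 4 reads in WT replicate 3. It also limits named pathway genes: the lowest WT value was 0 CPM for Spcs3 and Ube2g2. That value was 0.4 CPM for Wfs1 and Trib3, 0.45 CPM for Sec11c, 0.53 CPM for Pdia5 and Srp54a, and 0.79 CPM for Fkbp14 and Ostc.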

Other observations

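The ratio of Xbp1 to Hspa5 varied more within KO than within WT. It was chosen after the values were seen and is given without a test: 0.640, 0.289, 0.233, 0.146 and 0.105 in KO replicates 1 to 5, against 0.327, 0.156, 0.156 and 0.205 in WT replicates 1 to 4.

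Promoters with ERSE or ERSE-II belonged to 49 genes, of which 22 were in the table, a set compiled after the data were seen and described without a test. Of these 22, 8 were called higher in the deposited CPM, beside 32.0% of all genes, and 10 lay above 0 in the relative values, beside 57.9% of all genes. Their relative median was −0.11. The 16 that were not among the 10 ER genes had 4 calls, 6 values above 0 and a relative median of −0.14, against 0.12 over all genes.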
